A study of Mus musculus with 2 samples.

Results

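The genes that encode Polycomb proteins, nucleosome remodelers and the enzymes that write and erase marks on histones and DNA were examined for binding of the vitamin D receptor (VDR) in the embryonic mouse heart. The set held 48 genes, out of 21887 protein-coding genes with a RefSeq span on the mm10 genome build, and all 48 were found by symbol. They were chosen by name, for what their products do, with earlier results of these data known. VDR-bound DNA had been recovered by chromatin immunoprecipitation from left ventricles at embryonic stage E16.5 and sequenced. There was 1 library from embryos of mothers on a normal diet and 1 from embryos of mothers on a diet deficient in vitamin D, and strain, sex, maternal age and numbers of animals are not given in the sources used here. No differences between the diets could be tested, so every comparison below describes the 2 libraries and not the diets.

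VDR is a nuclear receptor that binds DNA as a partner of the retinoid X receptors and acts on transcription once its hormone, the active form of vitamin D, is bound. It does so by recruiting coactivators and corepressors, among them histone acetyltransferases, histone deacetylases and remodelers of the kind encoded by these genes. Polycomb complexes keep developmental genes silent by marking histones, remodelers move nucleosomes, and several of these genes are required for normal heart formation.

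A gene was counted as having a peak when a peak summit, the base of highest signal, lay inside its RefSeq span or within 10 kb of either end. A normal-diet and a deficient-diet peak that overlapped by at least 1 bp are called a pair. The normal-diet list held 23456 peaks and the deficient-diet list 37661. The libraries were not equally deep. The background recovered from the deposited values, as fragments expected per position, was 2.65 genome-wide in the normal-diet library. In the other library it was 5.38, or 2.03 times as high. A gene without a peak in a list had none above the authors' threshold at that depth. A larger number of deficient-diet peaks at a gene is therefore not read as more binding, and the part of depth in the counts below was not tested.

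Of the 48 genes, 30 had a normal-diet peak (62.5%), where 49.8% of all protein-coding genes did, and 35 had a deficient-diet peak (72.9%), where 59.5% did. Long genes meet such a rule more often. All protein-coding genes, weighted to the span lengths of the 48, gave 27.6 and 32.5 genes, so both counts were near the background. Of the 4 members with spans under 10 kb, 3 had a normal-diet peak (39.1% of all genes of that length did), 4 a deficient-diet peak (47.8%) and 3 an overlapping pair (17.4%). Of the 9 with spans of 10 to 30 kb, 5 had a normal-diet peak (50%), 5 a deficient-diet peak (59.8%) and 1 a pair (20.6%). Of the 22 with spans of 30 to 100 kb, 12 had a normal-diet peak (55.1%), 15 a deficient-diet peak (66.6%) and 10 a pair (24.3%). Of the 11 with spans of 100 to 300 kb, 8 had a normal-diet peak (69.9%), 9 a deficient-diet peak (78.7%) and 4 a pair (35.1%). Both genes of 300 kb or more, Arid1b and Hdac9, had peaks in each list (85.3% and 93% of all such genes did) and 1 of them, Hdac9, had a pair (59.6%). Peaks of both lists occurred at 25 members (52.1%, against 40.7% of all genes and 23.2 genes after weighting). Peaks of the normal diet alone occurred at 5 members, namely Ezh1, Smarca2, Arid1a, Hdac1 and Hdac3 (10.4%, against 9.17%). Peaks of the deficient diet alone occurred at 10, namely Suz12, Phf19, Ring1, Smarcb1, Kmt2c, Setd2, Ep300, Hdac4, Tet1 and Tet2 (20.8%, against 18.8%).

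In 2 other counts the members stood further from the background, by an amount that depended on the rule. A pair was found at 19 members (39.6%), where 22.5% of all genes had one and the weighted background gave 12.9 genes. Cbx2 and Cbx8, neighbours on chromosome 11, share 1 of these pairs. At least 5 deficient-diet peaks were found at 13 members (27.1%), where 8.17% of all genes had as many and the weighted background gave 6.07 genes. This count was chosen after the values were seen. At least 5 normal-diet peaks were found at 4 members, Smarcd3, Kmt2d, Hdac5 and Tet3 (8.33%, against 3.13% and 2.5 genes by weighting). More deficient-diet than normal-diet peaks were found at 25 members (52.1%, against 38.4% and 21.4 genes by weighting). The reverse was found at 10 (20.8%, against 16.7% and 8.49 genes by weighting). With the deficient-diet list shortened to the length of the normal-diet list, pairs were found at 12 members, against 9.51 by weighting, and 5 or more deficient-diet peaks at 7, against 2.63. The pair count came closer to the weighted background when the peaks had to overlap by 50% of both (11 members, against 9.32) or to have summits within 100 bp (9, against 8.15). Among peaks with a -log10 q of 5 or more, it was 1, below the 2.38 of the weighted background, and no member had 5 or more deficient-diet peaks, against 0.314. These are descriptions of a list of named genes, without a test.

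**Figure D1:**
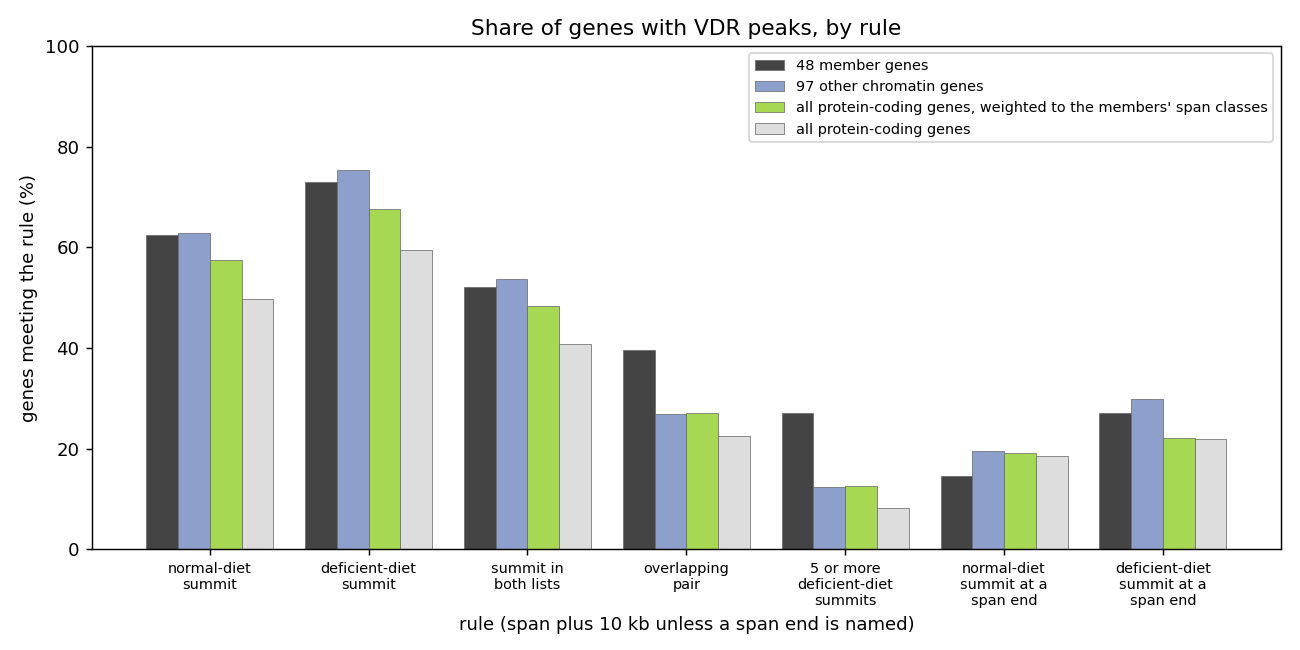
Share of genes (vertical axis, percent) that met each rule (horizontal axis), for the 48 genes, for 97 other chromatin genes, for all protein-coding genes weighted to the span classes of the 48, and for all protein-coding genes. The dark bars rise furthest above the weighted background for an overlapping pair (39.6% against 27%) and for 5 or more deficient-diet summits (27.1% against 12.6%).

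The windows of the 48 genes, 5.55 Mb in all, held 79 normal-diet and 138 deficient-diet peaks. This was 1.42 and 2.49 peaks per 100 kb, against 1.22 and 1.93 over the windows of all protein-coding genes. Inside a member's span lay 51 of the 79 normal-diet and 104 of the 138 deficient-diet summits, and the rest lay in the 10-kb flanks. Of the 28 normal-diet and 34 deficient-diet flank summits, 19 and 20 fell within the span of another protein-coding gene. Of the 79 normal-diet peaks, 22 had a partner in the other list, which is 27.8% (exact 95% binomial interval 18.3 to 39.1%, counting error only), and of the 138 deficient-diet peaks, 22 did, or 15.9% (10.3 to 23.1%). Over the windows of all protein-coding genes these shares were 30.5% and 19.4%, and over the whole lists 34.0% and 21.3%. All of these lie inside the intervals of the members. The intervals count peaks as independent although many lie in the same gene, and the background includes the member peaks. A difference in sharing was therefore not tested.

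The member peaks were of ordinary height. The median summit pileup, the number of fragments covering the summit, was 16 for normal-diet member peaks, as over that whole list, and 21 for deficient-diet ones, where the whole list had 22. The authors' -log10 q, which measures how far a peak stands above its local background after adjustment for multiple testing, had a median of 4.28 and 3.95. It reached 5 or more in 29.1% of the normal-diet and 18.1% of the deficient-diet member peaks, against 35.0% and 24.3% over the whole lists. Apart from 1 site in Jarid2, pileups of member peaks ran from 12 to 21 fragments (normal diet) and from 18 to 31 (deficient diet).

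**Figure D2:**
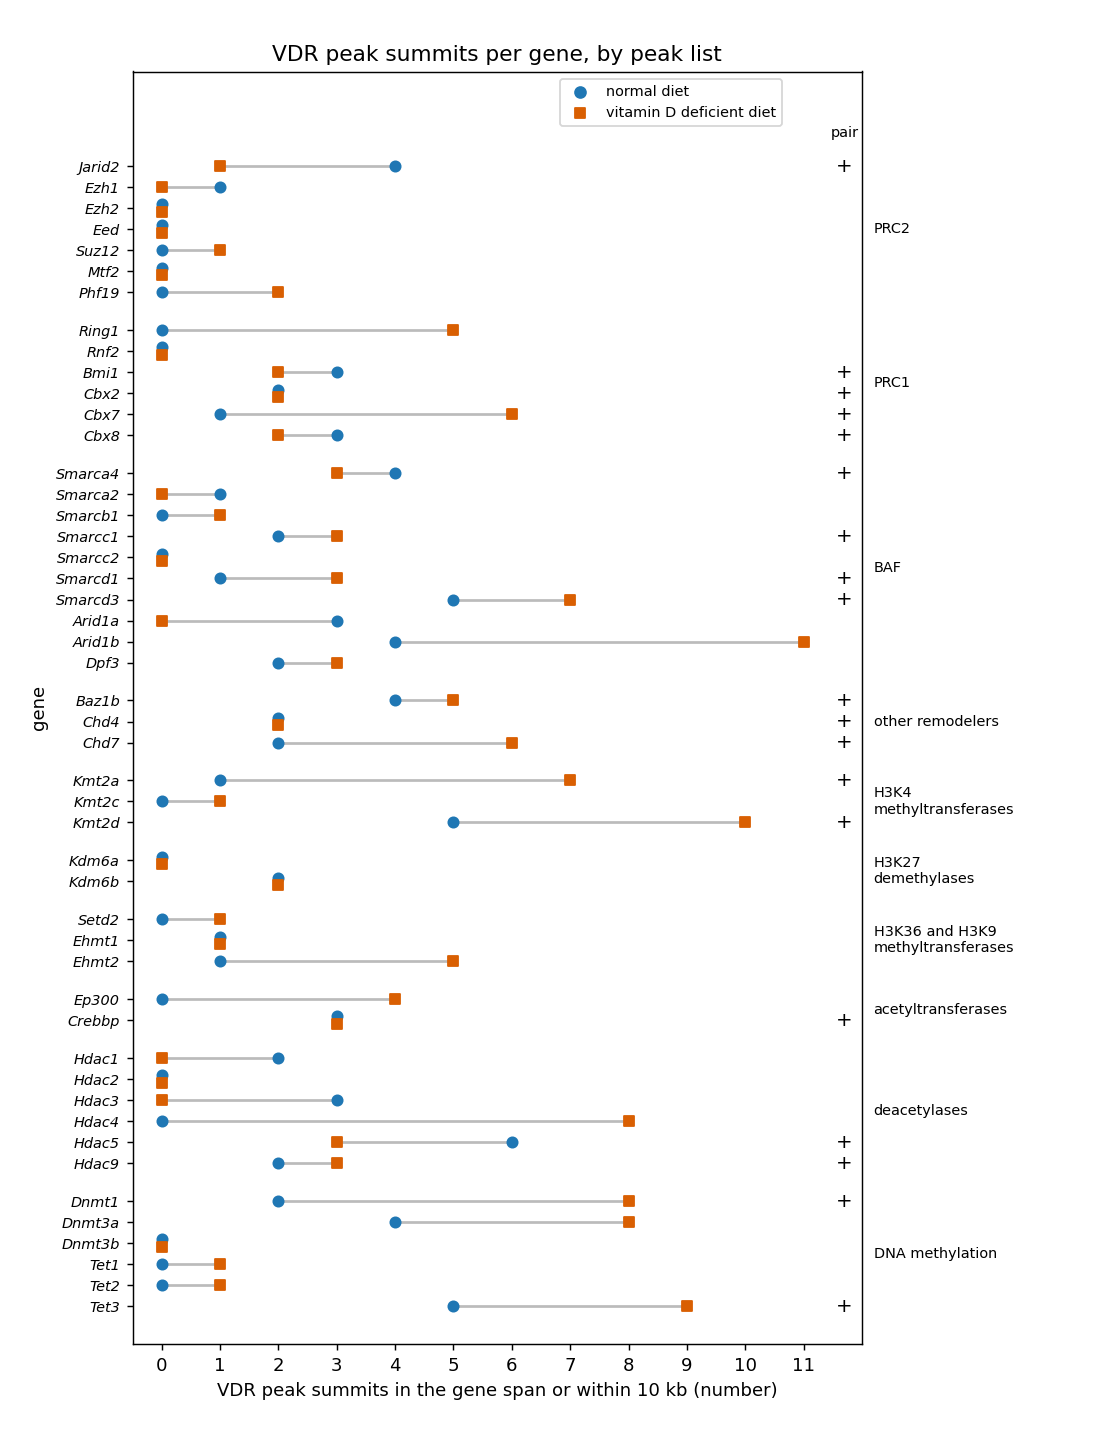
Number of peak summits (horizontal axis) in the span or within 10 kb of each of the 48 genes (vertical axis, grouped by role), with circles for the normal diet, squares for the deficient diet and a plus sign where a pair of peaks overlapped. Normal-diet counts ran from 0 to 6 and deficient-diet counts from 0 to 11, and 8 genes had 0 in both.

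The promoter sequences shown are the windows around gene starts that a member peak overlapped or came within 50 bp of. They run from 250 bases before to 50 after the start and are from RefSeq, on build GRCm38.p6, the sequence of mm10. Of the 53 promoter windows of the 43 genes with a listed start, the Baz1b window alone was overlapped by a peak, the normal-diet peak from 135187073 to 135187414. Those of Dnmt1, Tet3 and Setd2 lay 21, 31 and 18 bp from a deficient-diet peak and were added after the values were seen. Dnmt1 has more than 1 listed start, and its window is that of the start at the upstream end of the span. The listed start of Tet3 lies inside its span and not at the end. Capitals mark the 6-base VDR recognition elements on either strand, which are AGGTCA itself, the variant GGTTCA, the further variant AGTTCA and the closely related GGGTCA. All 4 sequences are given 5′ to 3′ on the strand of the gene, which is the plus strand for Baz1b (chr5:135187073-135187372) and Setd2 (chr9:110532347-110532646) and the minus strand for Dnmt1 (chr9:20959839-20960138) and Tet3 (chr6:83441629-83441928).
Baz1b: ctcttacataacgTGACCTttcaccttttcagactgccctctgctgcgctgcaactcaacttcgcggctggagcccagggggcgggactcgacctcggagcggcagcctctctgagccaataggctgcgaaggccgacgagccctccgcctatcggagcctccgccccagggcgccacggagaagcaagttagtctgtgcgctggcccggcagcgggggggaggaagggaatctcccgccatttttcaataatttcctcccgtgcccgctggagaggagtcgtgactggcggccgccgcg
Dnmt1: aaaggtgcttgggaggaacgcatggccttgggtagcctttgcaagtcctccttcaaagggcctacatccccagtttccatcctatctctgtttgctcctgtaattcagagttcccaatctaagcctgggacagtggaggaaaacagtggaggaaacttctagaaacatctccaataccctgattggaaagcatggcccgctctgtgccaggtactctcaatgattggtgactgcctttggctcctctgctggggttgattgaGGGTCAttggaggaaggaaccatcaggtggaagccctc
Tet3: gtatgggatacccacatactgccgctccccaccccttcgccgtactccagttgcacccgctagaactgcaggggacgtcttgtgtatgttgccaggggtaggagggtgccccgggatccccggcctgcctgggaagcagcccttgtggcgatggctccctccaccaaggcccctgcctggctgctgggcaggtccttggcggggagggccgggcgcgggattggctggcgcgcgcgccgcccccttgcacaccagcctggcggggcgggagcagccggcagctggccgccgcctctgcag
Setd2: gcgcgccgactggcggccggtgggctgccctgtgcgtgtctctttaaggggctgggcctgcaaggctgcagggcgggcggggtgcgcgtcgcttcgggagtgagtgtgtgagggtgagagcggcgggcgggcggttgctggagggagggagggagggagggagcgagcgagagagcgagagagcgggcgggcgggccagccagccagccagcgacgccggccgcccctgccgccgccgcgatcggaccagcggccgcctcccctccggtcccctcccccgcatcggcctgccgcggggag
The Baz1b window holds AGGTCA once, on the opposite strand, and the Dnmt1 window holds GGGTCA once, on the strand shown. The windows of Tet3 and Setd2 hold none of these letters. At least 1 such element occurs in 43.7% of all 32851 promoter windows and in 32.1% of the 53 of these genes. DR3, a pair of such elements in the same orientation 3 bases apart and the arrangement VDR is best known to bind, occurs in 0.0396% of all windows and in none of the 53. A match is a string of letters and no evidence of binding. The windows of Baz1b, Tet3 and Setd2 have GC contents of 64.7%, 71.3% and 77.3%, and that of Dnmt1 51.3%, against a median of 68.3% over the 53 and 52.7% over all windows.

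The 7 genes of Polycomb repressive complex 2 in the set had the fewest peaks per gene of the 10 groups. This was over both lists together and without regard to gene length. The complex methylates histone H3 at lysine 27. Its catalytic subunit Ezh2, its core subunit Eed and its accessory subunit Mtf2 had no peak in either list. The nearest summits to Ezh2 lay 56572 bp away (normal diet) and 56493 bp away (deficient diet). Those nearest to Eed were at 195664 and 134344 bp, and those nearest to Mtf2 at 37141 and 159980 bp. Suz12, the remaining core subunit, had a single deficient-diet peak, spanning bases 79993622 to 79993819 of chromosome 11, with a pileup of 19 and a summit 553 bp downstream of the RefSeq start. Ezh1, the alternative catalytic subunit, had a single normal-diet peak, 4418 bp from its span and inside the neighbouring gene Cntnap1. Phf19, an accessory subunit, had 2 deficient-diet peaks inside the gene with pileups of 18 and 21. In all, the 7 genes held 5 normal-diet and 4 deficient-diet peaks, and 4 of the former were at Jarid2. Of genes of this complex outside the set, Epop had 4 normal-diet and 3 deficient-diet peaks, Phf1 2 and 8, and Rbbp4 1 of each. The low number thus describes these 7 genes and not the complex.

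Jarid2, which helps bring the complex to its targets and is needed for heart development, carried the strongest peak of the set in both lists. It lay inside the gene on chromosome 13, 138408 bp downstream of the nearest RefSeq start, at 44869535 to 44870014 (normal diet) and 44869576 to 44869755 (deficient diet). The summits were 13 bp apart. The normal-diet peak had a pileup of 178, a -log10 q of 59.1 and rank 5 in its list. The deficient-diet peak had a pileup of 185, a -log10 q of 24.7 and rank 28. The local background was also raised there in both libraries, at 35.1 and 68.9 fragments, which is 13.2 and 12.8 times the genome-wide value. No other member peak had a local background over 2 times the genome-wide value, and 3.37% and 2.67% of all peaks did. The fold enrichment over that background was 4.96 and 2.66, against list medians of 4.38 and 3.45, so the normal-diet fold was above its list's median and the deficient-diet fold below it. The part of the raised background in this peak was not tested. Jarid2 had 3 further normal-diet peaks, of which 1 inside the gene, from 44914751 to 44915018, reached a -log10 q of 8.67 with 21 fragments, and it had no further deficient-diet peak.

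Polycomb repressive complex 1 ubiquitinates histone H2A and reads the methyl mark. Pairs lay at 4 of its 6 genes in the set, with 1 shared by Cbx2 and Cbx8, against 22.5% of all genes. Of its 2 catalytic subunits, Ring1 had 5 deficient-diet and no normal-diet peaks, and Rnf2 had none in either list. The Ring1 span is short, at 3889 bp, and 4 of its 5 peaks lay upstream in the neighbouring genes H2-Ke6, Slc39a7 and Rxrb. The other, with 22 fragments, lay inside Ring1, 1510 bp from the RefSeq start. Rxrb encodes a retinoid X receptor, the class of proteins that partners VDR on DNA, and it held 2 of these summits, with pileups of 21 and 25.

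Bmi1, a scaffold subunit, had 3 normal-diet and 2 deficient-diet peaks. Its pair lay 2299 bp beyond the span on chromosome 2, in the neighbouring gene Gm46725. This pair ran from 18688794 to 18689155 and from 18688804 to 18689165, with 18 and 22 fragments. The Cbx proteins are the subunits that read the methyl mark. Cbx7 had 1 normal-diet peak, with a -log10 q of 6.98 and 19 fragments, and 6 deficient-diet peaks, of which 1 had its summit 100 bp outside an end of the span. The normal-diet peak formed a pair with 1 of them on chromosome 15 from 79952761 to 79953149 and from 79952716 to 79952916. The pair shared by Cbx2 and Cbx8 lay inside Cbx2 on chromosome 11, from 119028143 to 119028498 and from 119028331 to 119028544, with 15 and 21 fragments. A deficient-diet peak beside it, from 119027780 to 119028075, was among the strongest of the set, with 29 fragments and a -log10 q of 8.23, and did not overlap a normal-diet peak. The Cbx genes of the set thus had peaks in both lists, while the catalytic subunits had none in the normal-diet list.

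The set held 10 genes of the BAF (SWI/SNF) remodeling complex. Of them, 8 had a normal-diet peak (49.8% of all genes did), 7 a deficient-diet peak (59.5%) and 4 a pair (22.5%). Smarca4, the main BAF ATPase (Brg1), had 4 normal-diet and 3 deficient-diet peaks, all inside the gene. The pair lay on chromosome 9 from 21635711 to 21635955 and from 21635761 to 21635960, with summits 7 bp apart and 14 and 24 fragments. The strongest Smarca4 peak was a normal-diet one without a partner, from 21677889 to 21678178, with 21 fragments and a -log10 q of 8.67. Smarca2, the alternative ATPase (Brm), had 1 normal-diet peak of 17 fragments and no deficient-diet peak. In these lists Smarca4 thus had a pair and Smarca2 a single peak. Of all genes in their span classes, 24.3% (30 to 100 kb) and 35.1% (100 to 300 kb) had a pair.

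Smarcd3 (Baf60c), the subunit enriched in the embryonic heart, was among the genes with the most peaks, with 5 normal-diet and 7 deficient-diet peaks in and around a span of 31835 bp. It had 2 pairs. One lay 120 bp inside the end of the span that is not the start of the gene, on chromosome 5 from 24592642 to 24592822 and from 24592619 to 24592865, with summits 3 bp apart and 15 and 22 fragments. The other lay 703 bp upstream of a RefSeq start inside the span, from 24602613 to 24602793 and from 24602573 to 24602734, with 14 and 20 fragments. Near the other end of the span the lists had peaks without overlap, a normal-diet summit 641 bp outside and a deficient-diet summit 47 bp inside. Its relative Smarcd1 had 1 normal-diet peak that paired with 1 of 3 deficient-diet peaks inside the gene on chromosome 15, from 99707925 to 99708277 and from 99707944 to 99708107, with 16 and 19 fragments. The core subunit Smarcc1 had 2 and 3 peaks, with a pair 40094 bp inside the gene on chromosome 9, from 110171984 to 110172200 and from 110171913 to 110172196, with 19 and 23 fragments. Its relative Smarcc2 had none in either list.

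The ARID subunits, which define the class of BAF complex, differed in which list held their peaks. Arid1a had 3 normal-diet peaks, the strongest with 18 fragments and a -log10 q of 6.22, 629 bp upstream of a RefSeq start, and no deficient-diet peak, the nearest being 10265 bp away. Arid1b had 4 normal-diet and 11 deficient-diet peaks over a span of 353360 bp, the highest deficient-diet number of the set, and none of them formed a pair. Its strongest deficient-diet peak, on chromosome 17 from 5321421 to 5321611, had 28 fragments and a -log10 q of 6.96. Dpf3, which reads acetylated histones and is expressed in heart and muscle precursors, had 2 normal-diet and 3 deficient-diet peaks and no pair. A normal-diet peak of Dpf3, on chromosome 12 from 83486982 to 83487213, had its summit 597 bp inside the gene from its RefSeq start, with 17 fragments. The core subunit Smarcb1 had a single deficient-diet peak, 9837 bp from the span and so just inside the window.

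All 3 other remodelers had a pair, and only the pairs of Chd7 lay inside the gene. Of all genes, 24.3% of those of 30 to 100 kb and 35.1% of those of 100 to 300 kb had a pair. Baz1b, a subunit of ISWI remodelers deleted in Williams-Beuren syndrome, had 4 normal-diet and 5 deficient-diet peaks. Its pair lay in the neighbouring gene Bcl7b, itself a BAF subunit gene, on chromosome 5 from 135181240 to 135181451 and from 135180948 to 135181268, with 16 and 24 fragments. At the start of Baz1b the lists had peaks side by side without overlap. Normal-diet summits were 547 and 49 bp upstream of the RefSeq start, with 16 and 14 fragments, and a deficient-diet summit was 472 bp downstream, with 19. Chd4, the ATPase of the NuRD complex, had 2 peaks in each list, with a pair 1325 bp beyond its far end, in the neighbouring gene Nop2. It lay on chromosome 6 from 125131786 to 125132074 and from 125132013 to 125132274, with 17 and 21 fragments. Chd7, mutated in CHARGE syndrome, had 2 normal-diet and 6 deficient-diet peaks. Both of its normal-diet peaks had partners inside the gene on chromosome 4. The first pair, from 8859340 to 8859587 and from 8859383 to 8859660, had 20 fragments in each list, and the second, from 8865865 to 8866086 and from 8865792 to 8866044, had 19 and 22.

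Among the histone H3 lysine 4 methyltransferases, the windows of Kmt2d and Kmt2a were rich in deficient-diet peaks and that of Kmt2c was poor. Kmt2d, mutated in Kabuki syndrome, had 5 normal-diet and 10 deficient-diet peaks, all inside a span of 42409 bp. That is 8.01 and 16 per 100 kb of its window, against 1.22 and 1.93 over all protein-coding windows. A single pair formed among them, on chromosome 15 from 98861724 to 98861948 and from 98861839 to 98862014, with 13 and 20 fragments. The strongest peaks of Kmt2d had no partner. They were a normal-diet peak from 98861052 to 98861243, with 20 fragments and a -log10 q of 7.8, and a deficient-diet peak from 98845194 to 98845428, with 31 fragments and a -log10 q of 8.81.

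Kmt2a, the founding member of the family, had 1 normal-diet and 7 deficient-diet peaks in its window. Only 3 of the 7 lay inside its span, and several of the rest lay beyond its far end in the neighbouring gene Tmem25. The pair of Kmt2a was also in Tmem25. It lay on chromosome 9 from 44798229 to 44798409 and from 44798171 to 44798414, with 13 and 19 fragments. Deficient-diet summits also lay 480 bp downstream and 1400 bp upstream of the RefSeq start of Kmt2a, with 21 and 28 fragments. Kmt2c, over a span of 227061 bp, had 1 deficient-diet peak, 492 bp upstream of its RefSeq start with 20 fragments, and no normal-diet peak. The longest of these 3 genes thus had the fewest peaks.

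The enzymes that remove the Polycomb mark had no pair (22.5% of all genes had one). Kdm6a, on the X chromosome, had no peak in either list, with the nearest summits 259452 and 37479 bp away. Kdm6b (Jmjd3) had 2 peaks in each list. Both normal-diet peaks of Kdm6b lay inside the gene, the stronger with 19 fragments and a -log10 q of 6.5, and the nearest deficient-diet summit was 5806 bp from the weaker one. The methyltransferases of lysines 36 and 9 had no pair either. Setd2, which methylates lysine 36 and is needed for blood vessel formation in the embryo, had 1 deficient-diet peak, 401 bp upstream of its RefSeq start with 23 fragments. Ehmt1, which methylates lysine 9, had 1 peak in each list, a normal-diet one 6354 bp outside an end of the span and a deficient-diet one 839 bp inside the other end. Its partner protein is encoded by Ehmt2 (G9a), which had 1 normal-diet and 5 deficient-diet peaks, the latter all inside a span of 15611 bp with 20 to 26 fragments.

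The paralogous acetyltransferases, coactivators of VDR and of heart transcription factors, differed from each other. Ep300 (p300) had 4 deficient-diet peaks and no normal-diet peak. The strongest of them lay on chromosome 15 from 81586456 to 81586677, 384 bp downstream of the RefSeq start, with 27 fragments and a -log10 q of 6.58, and the other 3 lay within 1 kb of each other near the far end. Crebbp (CBP) had 3 peaks in each list and 2 pairs. The first pair lay beyond the far end, in Trap1, on chromosome 16 from 4077487 to 4077745 and from 4077491 to 4077738, with 18 and 19 fragments. The second lay inside Crebbp from 4084217 to 4084631 and from 4084133 to 4084611, with 14 and 21 fragments.

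Among the deacetylases, the class I genes of the set had no deficient-diet peak. All 3 have spans of 10 to 30 kb, where 59.8% of all genes had such a peak. Hdac1 had 2 normal-diet peaks in its flank, Hdac3 had 3 and Hdac2 had none in either list. The peak closest to Hdac3 lay 510 bp from an end of its span, with 19 fragments and a -log10 q of 6.7. The strongest of the Hdac3 peaks lay 1996 bp from the other end, in Diaph1, with 20 fragments and a -log10 q of 7.47. The class IIa genes, whose products bind Mef2 factors and restrain growth of the heart muscle, differed from one another in number and density. Hdac4 had 8 deficient-diet peaks with 19 to 25 fragments, 1 of them 333 bp outside an end of the span, and no normal-diet peak, the nearest being 21217 bp away. Hdac5 had the most normal-diet peaks of the set, 6, all inside the gene with 13 to 16 fragments and 2 of them within 1 kb of its far end, and 3 deficient-diet peaks. It had a pair on chromosome 11 from 102202545 to 102202730 and from 102202593 to 102202773. Hdac9, the longest gene of the set at 869516 bp, had 2 and 3 peaks. Its pair lay on chromosome 12 from 34067025 to 34067457 and from 34067221 to 34067684, with summits 480 bp apart and 15 and 26 fragments, and a further normal-diet peak from 34290811 to 34291178 reached a -log10 q of 8.67. A deficient-diet summit of Hdac9 lay 717 bp upstream of 1 of its RefSeq starts, with 19 fragments. Per 100 kb of window, the normal-diet numbers were 4.3 at Hdac1, 0 at Hdac2 and 7.89 at Hdac3. They were 0 at Hdac4, 11 at Hdac5 and 0.225 at Hdac9, so normal-diet density did not order the classes. Deficient-diet numbers per 100 kb were 0 at Hdac1, Hdac2 and Hdac3, but 2.79 at Hdac4, 5.51 at Hdac5 and 0.337 at Hdac9. Each class IIa gene of the set thus had a higher deficient-diet density than the class I genes.

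Among the genes of DNA methylation, Dnmt1, Dnmt3a and Tet3 held all 11 normal-diet and 25 of the 27 deficient-diet peaks. Dnmt1, which copies methylation after replication, had 2 normal-diet and 8 deficient-diet peaks. It had a pair on chromosome 9 from 20911631 to 20911899 and from 20911717 to 20911941, with 15 and 25 fragments. A deficient-diet summit with 24 fragments lay 187 bp downstream of 1 of its RefSeq starts, that at the upstream end of its span. Dnmt3a, which sets methylation anew, had 4 and 8 peaks, all inside the gene and none overlapping, and its relative Dnmt3b had none in either list. Tet3, which oxidises methylated cytosine, had 5 and 9 peaks and 2 pairs near the upstream end of its span on chromosome 6. The first pair, from 83453626 to 83453912 and from 83453585 to 83453942, had 16 and 19 fragments. The second, from 83457066 to 83457299 and from 83457018 to 83457221, had summits 38 bp outside the end of the span (normal diet) and 42 bp inside it (deficient diet), with 18 and 28 fragments. Tet1 and Tet2 had 1 deficient-diet peak each, that of Tet2 9635 bp from the span.

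**Figure D3:**
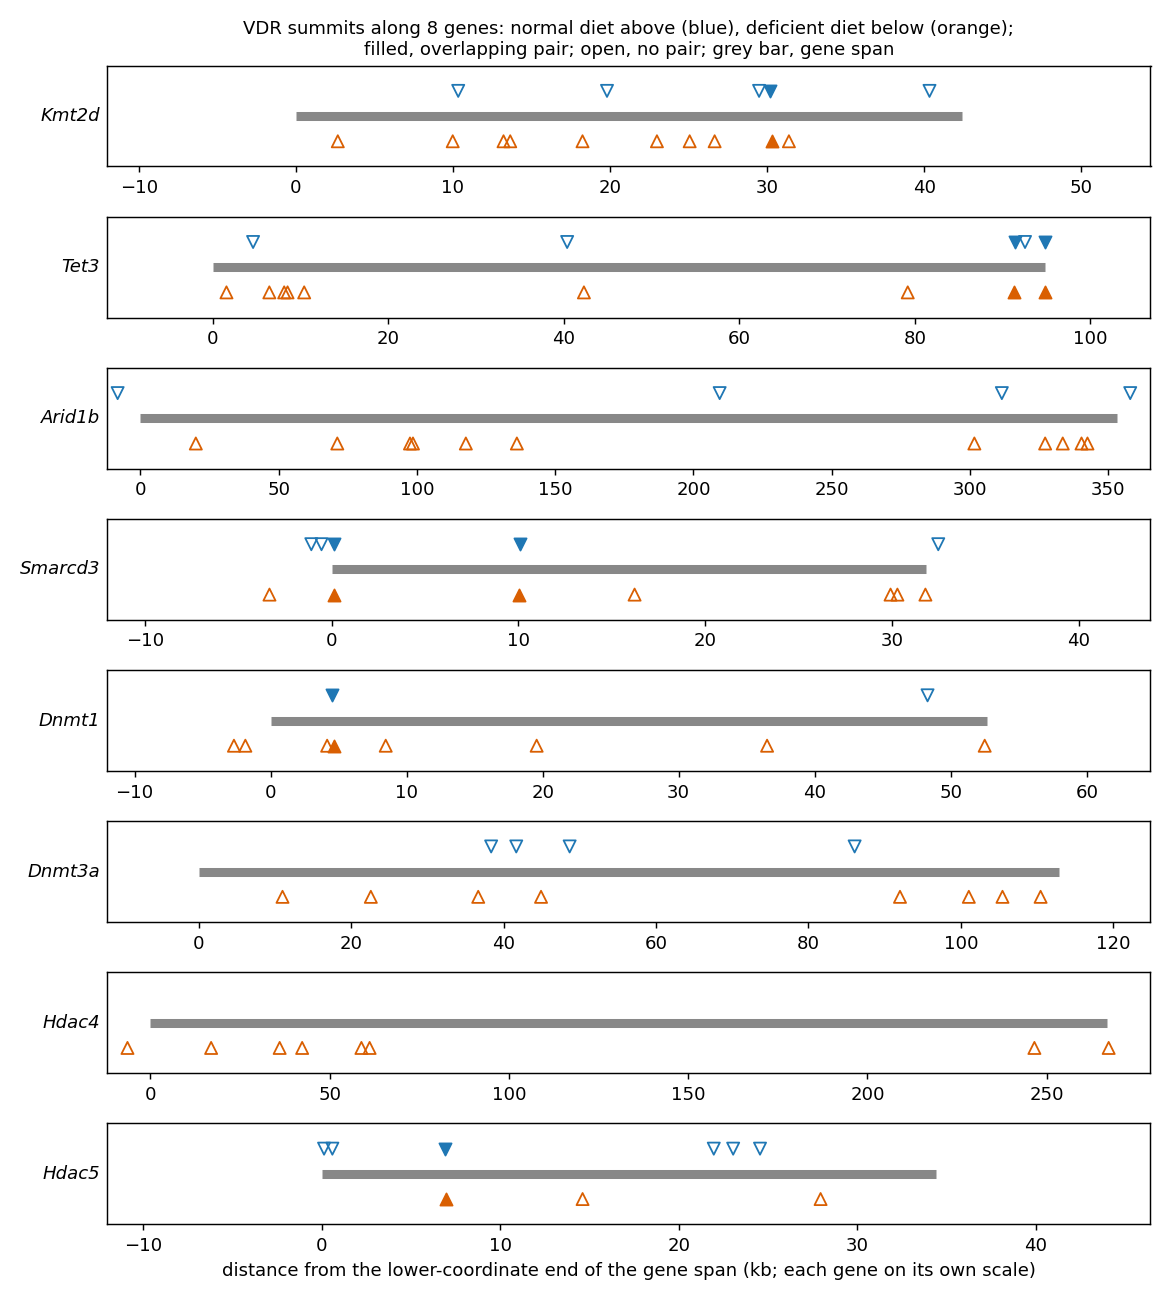
Position of summits along 8 genes rich in peaks, with normal-diet summits above and deficient-diet summits below the grey gene span, filled where a pair overlaps. The horizontal axis gives the distance in kb from the end of the span with the lower coordinate, on its own scale for each gene. Kmt2d has all 5 normal-diet and 10 deficient-diet summits inside its span, 3 of the 5 normal-diet summits of Smarcd3 lie outside its span, Dnmt3a and Arid1b have no pair, and Hdac4 has 8 deficient-diet summits and no normal-diet one.

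Over the 22 distinct pairs, 16 lay inside a member's span, and the summits of a pair were 3 to 480 bp apart with a median of 80.5 bp, close to the 87 bp over all pairs of the lists. Without Jarid2, pileups ran from 13 to 20 (normal diet) and from 19 to 28 (deficient diet), and -log10 q from 2.81 to 7.8 and from 2.83 to 6.73. The fold enrichment was higher in the normal-diet peak in 20 of the 22 pairs, as it was in 89% of all pairs. The part of depth in this order was not tested. The 2 exceptions were the Hdac9 pair, with folds of 3.3 and 3.79, and the Tet3 pair at the end of its span, with 3.92 and 4.16. They were picked out after their values were seen.

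**Figure D4:**
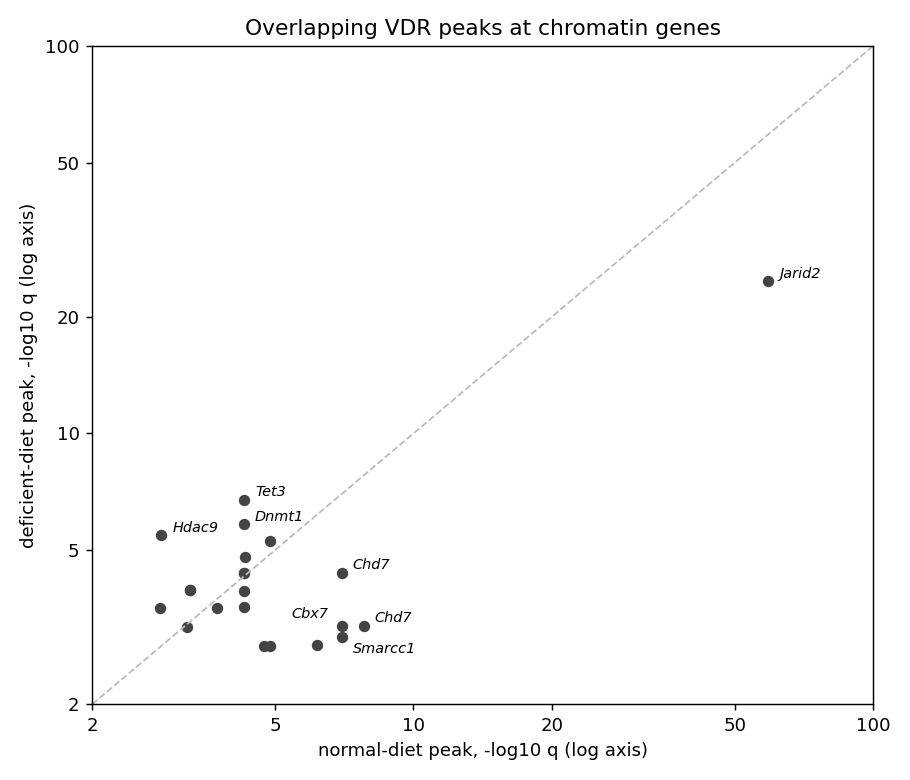
The authors' -log10 q of the deficient-diet peak (vertical, log axis) against that of the normal-diet peak (horizontal, log axis) for the 22 pairs, 1 point each, with equal values on the dashed line. Jarid2 stands alone at 59.1 and 24.7, and every other point lies under 8 on both axes.

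Normal-diet summits lay within 1 kb of either end of the span at 7 members (14.6%, against 18.5% of all genes), and deficient-diet summits at 13 (27.1%, against 21.9%). The 7 were Smarcd3, Dpf3, Baz1b, Chd4, Hdac3, Hdac5 and Tet3. The 13 were Suz12, Cbx7, Smarcd3, Baz1b, Kmt2a, Kmt2c, Setd2, Ehmt1, Ep300, Hdac4, Hdac9, Dnmt1 and Tet3. Smarcd3, Baz1b and Tet3 were in both (6.25%, against 8.41%). RefSeq starts were at hand for 43 of the 48 genes. Within 1 kb of such a start lay a normal-diet summit at 5 of them (11.6%, against 17.1% of all protein-coding genes with a listed start) and a deficient-diet summit at 11 (25.6%, against 18.8%). With the deficient-diet list shortened to the length of the other, the count near a span end was 8, where 14.3% of all genes had such a summit.

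The other chromatin genes, 97 more subunits and enzymes of the same and of other complexes, gave similar shares for a peak in each list. Of them 61 (62.9%) had a normal-diet and 73 (75.3%) a deficient-diet peak, and 52 had both. A pair was found at 26 (26.8%) and at least 5 deficient-diet peaks at 12 (12.4%). The 48 genes gave 39.6% and 27.1%, but the windows of the 97 were shorter on average (7.79 Mb over 97 genes, against 5.55 Mb over 48) and these shares were not weighted to the span lengths of the 97. The strongest normal-diet peaks among them were at Ino80, the ATPase of the INO80 remodeler, with 23 fragments and a -log10 q of 10.5, at Ash1l, a lysine 36 methyltransferase, with 22 fragments and 9.57, and at Kdm4b, a lysine 9 demethylase, with 20 fragments and 7.8. None of these had a partner. The strongest deficient-diet peaks were at Smarca5, the ISWI ATPase, with 35 fragments, a -log10 q of 12.5 and a partner, at Chd6, a remodeler of the Chd7 family, with 28 fragments and 7.59, and, with equal values of 27 fragments and 6.97, at Epop and Phc1, Polycomb subunits. No local background over 2 times the genome-wide value occurred at these 97 genes.

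Within 1 kb of the edge of the 10-kb window lay 7 summits inside it and 3 outside. Inside were the single peaks of Smarcb1 (9837 bp) and Tet2 (9635 bp), normal-diet summits of Smarcc1 (9753 bp), Jarid2 (9424 bp) and Hdac3 (9328 bp), and deficient-diet summits of Smarcd1 (9603 bp) and Kmt2a (9190 bp). Outside were a normal-diet summit of Smarcd1 (10072 bp) and deficient-diet summits of Arid1a (10265 bp) and Hdac4 (10815 bp). Genes with no peak in either list numbered 8 (16.7%, against 31.3% of all genes and 11.2 genes by weighting). They were Ezh2, Eed, Mtf2, Rnf2, Smarcc2, Kdm6a, Hdac2 and Dnmt3b. The nearest normal-diet and deficient-diet summits lay 70443 and 41054 bp from Rnf2, and 56148 and 195710 bp from Hdac2. For Dnmt3b the distances were 48919 and 27565 bp. Smarcc2 was the closest of the 8 to a summit of either list, at 12085 and 21413 bp.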

How the data were processed

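VDR chromatin immunoprecipitation was measured in 1 library per diet, and groups were taken from the tissue labels. The authors deposited 1 peak list per sample on build mm10, per the file headers, in the narrowPeak layout. The submitters' processing notes name SAMtools and MACS2, without versions or roles, and the control library and threshold are not given in the sources used here. Each deposited peak has a fold enrichment, which is a ratio over local background, and the -log10 of its p-value and q-value. They were computed by the authors and serve here to rank and describe peaks inside each list. In the normal-diet list the end and score are joined by a point and were split there, and 1 peak that lacked a start was dropped, leaving 23456 of 23457. Of the deficient-diet list all 37661 were used.

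Pileup and local background were recovered from the fold, read as pileup plus 1 over background plus 1, and the Poisson p-value. Whole-number pileups gave the deposited -log10 p within 0.000293 in every peak, and the lowest background of a list was read as genome-wide. No header states either reading. Most peaks rest on about 16 or 22 fragments, so single peaks are imprecise.

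Spans, without exons, came from the RefSeq table of GRCm38.p6, and starts and strands from its promoter table, which lists 43 of the 48 genes. Background shares were taken over all protein-coding genes, also weighted by the number of members in 5 span classes bounded at 10, 30, 100 and 300 kb. Intervals are Clopper-Pearson at 95%. Genes named with positions were those with a pair, with a summit within 1 kb of a span end, or among the 5 with the most or the strongest peaks of a list. The other members were given by counts and by single values. The strongest 3 peaks per list were named for the other chromatin genes. Members, lists and rules were chosen with earlier results of these data known. Counting of summits, overlaps and pileups was checked on simulated data. Python 3.11.15, pandas 2.3.3 and scipy 1.17.1 were used.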

Additional observations from a re-analysis of the deposited data

How the results depend on the processing

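No paired analysis was possible because there is only 1 peak list for either diet. Leaving out a library was impossible for the same reason. Of 69 recomputed values of 13 results, 42 stayed within 1.5 times of a count or within the 95% interval of a share, and 27 did not. The cause was not tested where none is given. At a -log10 q of 5 or more, which leaves fewer peaks by construction, 18 members had a normal-diet peak (14.4 by weighting), 16 a deficient-diet peak (14.7), 6 both (7.15), 1 a pair (2.38) and 0 at least 5 deficient-diet peaks (0.314). Member peaks numbered 23 and 25, with shares having a partner of 4.35% and 4%. A summit near a span end was left at 3 members in each list (3.33 and 2.6 by weighting), and 23 and 26 of the other chromatin genes had a peak. With lists of equal length, pairs were found at 12 members and 5 or more deficient-diet peaks at 7. Deficient-diet member peaks then numbered 80, the normal-diet share with a partner was 15.2%, and 8 members had a deficient-diet summit near a span end. Overlap by 50% of both peaks gave pairs at 11 members (9.32 by weighting). Summits within 100 bp gave 9 (8.15), with shares of 15.2% and 8.7%. The excess of members with a pair over the weighted background was therefore small under either rule, and with the -log10 q filter the count fell below it. The span alone held 51 normal-diet peaks and windows of 25 kb held 119, and that window gave at least 5 deficient-diet peaks at 20 members (9.72 by weighting). Within 3 kb of a span end, 14 members had a normal-diet summit (28.6% of all genes, 13.9 members by weighting) and 22 a deficient-diet one (34.8%, 16.7), so the normal-diet count was at the background. Peaks at a raised background and, added after the data were seen, peaks inside another gene's span could be left out without such a move. Without the latter, pairs remained at 14 members.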
